A study of Columba livia with 6 samples.

Results

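The genes that set the sex of the gonad were read from ovaries of domestic pigeons (Columba livia) by gene name. Every locus whose name held DMRT1, SOX9, NR5A1, WNT4, RSPO1, FOXL2 or GATA4 was taken, and 12 of the 34346 loci in the table did. These 12 loci covered 6 of the 7 genes. SOX9, RSPO1 and NR5A1 had 1 locus each, WNT4 and FOXL2 had 2 each, and GATA4 had 5. DMRT1 had none under its own symbol. It was found as LOC102097100, which carries the RefSeq gene number of DMRT1 and is described in the table as the doublesex- and mab-3-related transcription factor 1. Because that locus was identified after the table had been seen, it is described beside the 12 and not counted among them. Of the 12 loci, 6 held transcripts of the reference annotation and are called annotated here. The other 6 held only transcripts assembled from the reads of this study and are called assembled.

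The libraries came from 6 female pigeons, all 2 years old and sexually mature, with no treatment. HP1, HP2 and HP3 were ovaries of birds with high egg production, and LP4, LP5 and LP6, numbered as in the labels, were ovaries of birds with low egg production. The birds were the best and the poorest layers of 1 pigeonry, came from 1 hatch with a common genetic background, and each library held 1 ovary. Total RNA was depleted of ribosomal RNA and sequenced in paired ends, and an ovary sample holds oocytes, follicle cells, stroma and vessels together. The question was how the ovaries of high layers differ from those of low layers. Each ovary is a separate bird, so the p-values below measure the spread between birds.

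In the embryo of a bird the gonad starts without a sex. NR5A1, a nuclear receptor that switches on steroid enzymes, and GATA4, a zinc finger factor, act in this early gonad of both sexes. DMRT1, a transcription factor gene on the Z chromosome, directs the gonad towards a testis, and SOX9 works downstream of it in the supporting cells. RSPO1 and WNT4 are secreted signals that raise beta-catenin activity on the ovarian side, where FOXL2, a forkhead factor of granulosa cells, favours the aromatase gene CYP19A1. Several of these genes stay active in the adult gonad, FOXL2 in granulosa cells and NR5A1 in steroid-producing cells among them.

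Total counts per ovary were between 97875183 and 108669967, and TMM scaling factors between 0.987 and 1.02. Values are given as counts per 1e6 counts of the library (CPM) after this scaling. In whole ovaries, fewer cells of a type and less RNA per cell cannot be told apart. Matched markers of oocytes summed to between 936 and 1508 CPM, and those of granulosa cells to between 231 and 651 CPM. Each sum rests largely on 1 gene, ZP2 for oocytes (528.6 to 873.6 CPM) and AMH for granulosa cells (153.4 to 603.6 CPM). Matched stroma and muscle markers, 9 of 10 on the list, summed to between 1519 and 2427 CPM in HP and between 2175 and 4778 CPM in LP. All 9 had lower means in HP, 5 of them at an unadjusted p below 0.05. HP2 stood apart in its kidney markers. The 6 of 10 that matched summed to 208.5 CPM there and to between 30.2 and 58.9 CPM in the other ovaries. All 6 had higher means in HP, 2 of them (SLC12A1 and CUBN, both highest in HP2) at an unadjusted edgeR p below 0.05. HP3 stood apart in adrenal medulla markers, of which all 7 matched and had higher means in HP, 0 of them at p below 0.05. They summed to 200.4 CPM in HP3 and to between 74.7 and 122.4 CPM in the other ovaries. FPKM, which divides by length, was not used to rank genes, because the length implied by count and FPKM was 6643 bp for the annotated FOXL2 locus, which spans 735 bp, and 268 bp for NR5A1, which spans 18915 bp. No order of level between genes is therefore given.

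All 7 genes were detected in every ovary, with DMRT1 as LOC102097100. The mean level of all 6 annotated loci was lower in HP than in LP, with a median log2 fold change of -0.42, against -0.01 for all 28274 loci tested. Of the 12 loci, 11 passed the filter of a mean FPKM of at least 0.1. Among these 11, 10 had a negative fold change, as did 14433 of all 28274 loci tested. The 11 are not separate genes, since 5 belong to GATA4 and 2 to FOXL2, and the assembled FOXL2 locus was at -0.0006. Of the 11 loci, 2 passed an unadjusted p of 0.05 in edgeR, both lower in HP. They were NR5A1 and an assembled minus-strand GATA4 locus. That is 18.2% of 11 loci, against 8.24% of all tested loci in either direction and 3.50% lower in HP. For loci higher in HP the share was 4.74%, and 0 of the 11 were among them. DMRT1, kept outside the 11, was (unadjusted edgeR p of 0.0438). Over 11 loci a count of 2 is too small to set the 18.2% apart from the background. None of the 11 had an absolute log2 ratio of mean FPKM of at least 1 together with p below 0.05. These limits were met by 3.11% of all loci, 2.09% higher and 1.02% lower in HP. DMRT1, again outside the 11, met both, at a log2 FPKM ratio of 1.009. After adjustment over all tested loci by the Benjamini-Hochberg method 0 of 11 passed 0.05 in edgeR, and 0 passed in DESeq2. Over all loci 3 passed after adjustment in edgeR, which is 0.0106%. In DESeq2 2 of the 11 had an unadjusted p below 0.05, as did 2879 of all 28274 loci. The HP and LP values overlapped at each of the 11 loci, whereas the groups did not overlap at 14.6% of all tested loci, 7.38% with HP above and 7.17% with LP above.

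**Figure D1:**
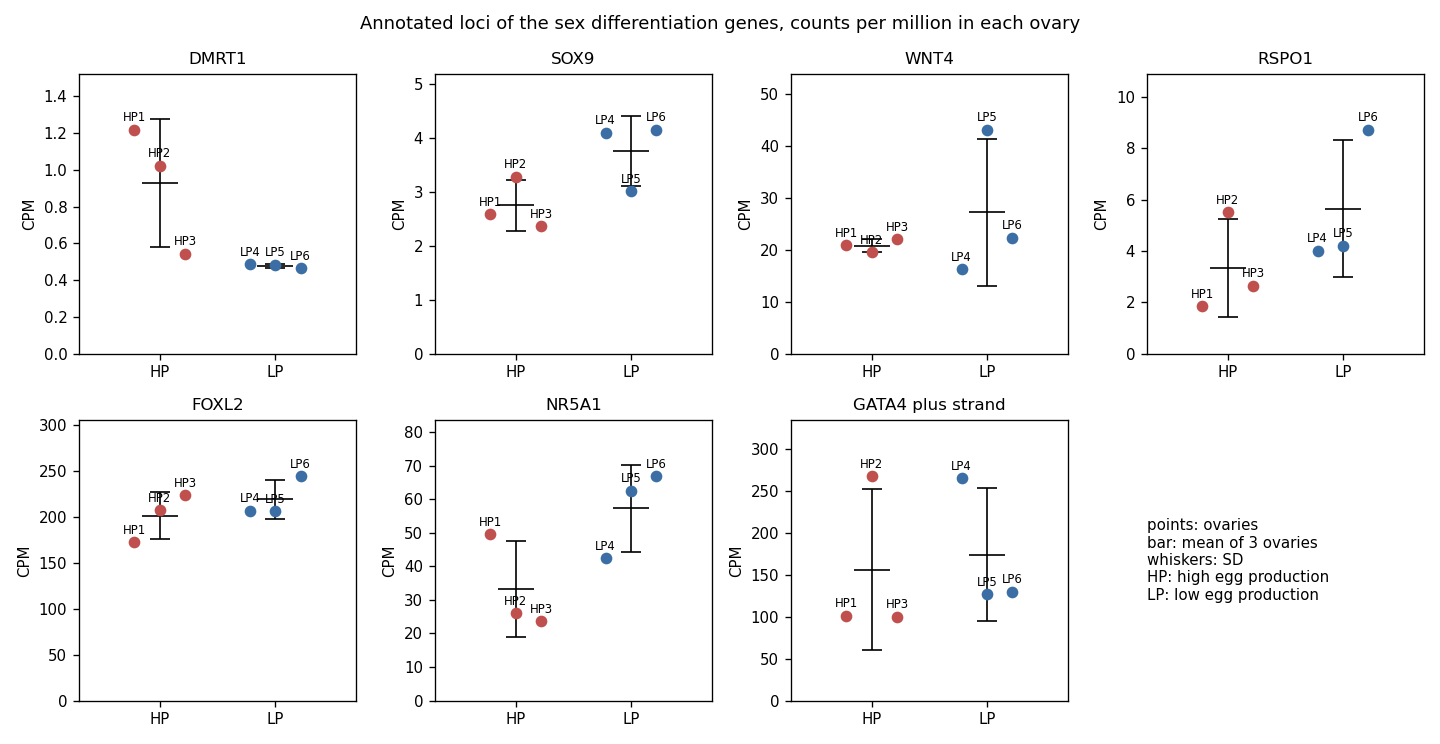
CPM (vertical axes, linear, from 0) in each of the 3 HP and 3 LP ovaries for DMRT1 and the 6 annotated loci found by name. Points are ovaries, the long bar is the group mean and the whiskers are the SD. DMRT1 is the only one of the 7 in which the groups do not overlap, as at 14.6% of all tested loci (7.38% with HP above). GATA4 is high in HP2 and LP4 alone.

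DMRT1, the testis-side regulator, was the one annotated gene here with a higher mean in HP. It lies on scaffold NW_004973424.1 of Cliv_1.0, positions 611926 to 670393 on the plus strand, with 1 reference transcript. Raw counts were 134, 103 and 57 in HP1, HP2 and HP3, against 47, 48 and 50 in LP4, LP5 and LP6. In CPM this was 1.22, 1.02 and 0.544 in HP against 0.485, 0.485 and 0.467 in LP. All 3 HP ovaries were above all 3 LP ovaries, as at 7.38% of all tested loci. HP3 was close to LP, and the LP values were nearly alike. Means were 0.928 ± 0.347 CPM in HP and 0.479 ± 0.0106 CPM in LP (SD, n = 3 each). The log2 fold change was 0.95 (SE 0.38, 95% interval 0.04 to 1.87). In edgeR the unadjusted p was 0.0438 and the adjusted p 0.595, and an exact permutation test gave 0.1, its lowest possible p with groups of 3. Its log2 ratio of mean FPKM was 1.009, so DMRT1 just met both limits. Higher in HP, 2.09% of all tested loci met them. The unadjusted p rose above 0.05 in 7 of 13 alternatives, among them each fit without 1 of HP1, HP2, LP4, LP5 or LP6, and without HP1 the log2 fold change was 0.71. At some 50 counts in each LP ovary the level is low. A minus-strand locus within it, LOC110362349, reached at most 0.118 CPM, in HP1. Oocyte markers were higher in mean in HP for 7 of 9 matched genes. Of these, 1 had an unadjusted edgeR p below 0.05 (ZP1, an egg coat gene read almost only in HP2). HP1, where DMRT1 was highest, had an oocyte marker sum of 1013 CPM, less than LP4 (1216 CPM) and LP6 (1206 CPM). HP3, the lowest of HP for DMRT1, had the largest sum (1508 CPM). The sum was 1476 CPM for HP2, and LP5 had the smallest, 936 CPM. The part of oocyte content in the DMRT1 values was not tested.

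The relatives of DMRT1 on the same scaffold did not share its order. DMRT3, whose gap to DMRT1 is 11936 bp, had 34 counts in HP1, 12 in HP2 and 3 in HP3, and 60, 4 and 0 in LP4, LP5 and LP6. Within HP it fell from HP1 to HP3 as DMRT1 did, but its highest value was in LP4. DMRT2, a further 26495 bp away, had 0.964, 1.07 and 1.26 CPM in HP and 1.51, 1.48 and 1.44 CPM in LP. Every LP ovary was above every HP ovary for DMRT2, the opposite side from DMRT1, as at 7.17% of all tested loci. DMRT2 and DMRT3 were both below the FPKM filter and were left out of the main edgeR fit. The fit without a filter held them, but its values for them are not given here. DMRTA2, another member of the family elsewhere in the genome, was tested and had between 0.118 and 0.134 CPM in HP and between 0.222 and 0.300 CPM in LP, with an unadjusted p of 0.0643 in edgeR.

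SOX9, which drives Sertoli cell fate in the testis, was read at a low level. Its single reference transcript lies on NW_004973732.1, positions 442148 to 444273, minus strand. It stood at 2.59, 3.29 and 2.37 CPM in HP1, HP2 and HP3, from 285, 331 and 248 counts. In LP4, LP5 and LP6 it stood at 4.10, 3.01 and 4.15 CPM, from 397, 298 and 445 counts. HP2 was above LP5, so the groups overlapped, and LP4 and LP6 were the highest. The means were 2.75 ± 0.478 and 3.75 ± 0.646 CPM (SD, n = 3 each), and the log2 fold change was -0.45 (SE 0.25, 95% interval -1.04 to 0.14). The unadjusted edgeR p of 0.112 and the adjusted p of 0.662 did not pass, and p stayed between 0.0670 and 0.262 in all 13 alternatives. SOX9 lies inside a longer plus-strand locus, LOC110365818, which had between 4.79 and 15.2 CPM, and reads of the opposite strands cannot be told apart if strand was not used in counting.

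WNT4, a ligand of the ovarian side, was steady in HP and uneven in LP. The annotated locus is on NW_004973783.1, positions 77220 to 92391, minus strand. Its levels were 20.9, 19.5 and 22.1 CPM in HP1, HP2 and HP3, against 16.2, 43.2 and 22.3 CPM in LP4, LP5 and LP6. LP5 alone was high, and LP4 was the lowest of the 6, below every HP ovary. The log2 fold change of -0.39 (SE 0.35, 95% interval -1.22 to 0.45) had an unadjusted p of 0.307 and an adjusted p of 0.783 in edgeR. Without LP5 its sign turned, to 0.11 with an unadjusted p of 0.595. LP5 also had the highest sum of stroma and muscle markers, 4778 CPM, and whether these share a source was not tested. The assembled WNT4 locus, a single transcript from 26919 to 264051 on the same strand that encloses the annotated one, had only 14, 45 and 9 counts in HP and 7, 50 and 46 in LP. With a mean FPKM of 0.0620 it was the 1 member that fell below the filter.

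RSPO1, a secreted enhancer of WNT signalling, varied more between birds than between groups. Its 7 reference transcripts lie on NW_004973569.1, positions 1607591 to 1620249, minus strand, and no other locus of the table overlaps them. CPM values were 1.85, 5.51 and 2.65 in HP1, HP2 and HP3, against 4.02, 4.21 and 8.73 in LP4, LP5 and LP6. HP2 was above LP4 and LP5, and LP6 was 4.73 times HP1. The means were 3.34 ± 1.92 and 5.65 ± 2.67 CPM (SD, n = 3 each). In edgeR the log2 fold change was -0.76 (SE 0.50, 95% interval -1.96 to 0.43), with an unadjusted p of 0.174 and an adjusted p of 0.711. Without HP2 the log2 fold change was -1.33 with an unadjusted p of 0.0279 and an adjusted p of 0.902 in edgeR. Over the alternatives run for RSPO1 the adjusted p was between 0.648 and 0.916. The same fit without HP2 tested 28202 loci, of which 1467 had p below 0.05.

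FOXL2, the granulosa cell factor, was the evenest of the genes. The annotated locus on NW_004973338.1, positions 1157432 to 1158166, minus strand, had 172.7, 207.5 and 223.7 CPM in HP1, HP2 and HP3. LP4, LP5 and LP6 had 206.8, 206.1 and 243.9 CPM. HP1 was the lowest and LP6 the highest, and the other 4 ovaries lay between 206.1 and 223.7 CPM. The coefficient of variation over the 6 ovaries was 11.2%, and 81.1% of the 22392 tested loci with a mean of at least 1 CPM had a higher one. Between the groups the log2 fold change was -0.12 (SE 0.13, 95% interval -0.44 to 0.20), with an unadjusted p of 0.399 and an adjusted p of 0.829 in edgeR.

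The assembled FOXL2 locus, 142 bp away at positions 1155880 to 1157289 on the same strand, had the same order of the 6 ovaries. Its levels were 122.1, 145.4 and 161.6 CPM in HP and 135.0, 132.5 and 161.6 CPM in LP. The means, 143.0 ± 19.9 and 143.1 ± 16.1 CPM, were almost equal, with an unadjusted edgeR p of 0.997. The sign of its fold change depends on the setting, from -0.10 to 0.14 on the log2 scale. Of other ovary-side genes, CYP19A1, which makes oestrogen, had 50.0, 31.6 and 32.1 CPM in HP and 28.7, 34.8 and 37.7 CPM in LP. FST, the activin-binding follistatin, had between 0.953 and 1.78 CPM in HP and between 1.91 and 2.04 CPM in LP. Neither passed the test, with unadjusted p-values of 0.469 and 0.234 in edgeR. Every LP ovary was above every HP ovary for FST, as at 7.17% of all tested loci.

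NR5A1, the steroidogenic factor, had the lowest p of the 6 annotated members. Its locus, on NW_004973855.1 at positions 976470 to 995384, plus strand, joins 2 reference and 4 assembled transcripts and also carries the name LOC110355073, so the counts cover both. CPM values were 49.6, 26.1 and 23.7 in HP1, HP2 and HP3, against 42.4, 62.6 and 66.8 in LP4, LP5 and LP6. HP1 was above LP4, so the groups overlapped, while HP2 and HP3 were below every LP ovary. HP2 had the most kidney marker RNA and HP3 the most adrenal medulla marker RNA. HP1, highest of HP for NR5A1, had the next largest kidney sum (58.9 CPM), and LP5 the next largest adrenal medulla sum (122.4 CPM). The part of either tissue in the NR5A1 values was not tested. The means were 33.1 ± 14.3 CPM in HP and 57.3 ± 13.0 CPM in LP (SD, n = 3 each). Its log2 fold change was -0.79 (SE 0.32, 95% interval -1.56 to -0.01), with an unadjusted p of 0.0469 and an adjusted p of 0.599 in edgeR, and the exact permutation p was 0.2. The sign was kept in 13 of 13 alternatives, between -1.20 and -0.60, but the unadjusted p exceeded 0.05 in 5 of them. These were the Ballgown model (unadjusted p of 0.248) and the fits without HP2 (0.131), HP3 (0.131), LP5 (0.110) or LP6 (0.128). Without HP1 the log2 fold change was -1.20 with an unadjusted p of 0.00246, still with an adjusted p of 0.490, and the adjusted p ranged from 0.291 to 0.902 over its alternatives.

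Genes that NR5A1 is known to switch on did not pass the test between the groups. STAR, which carries cholesterol into mitochondria, had 7.08, 6.02 and 10.6 CPM in HP and 6.61, 14.5 and 10.6 CPM in LP. CYP11A1, the first enzyme of steroid synthesis, had 7.54, 6.33 and 17.03 CPM in HP and 0.981, 11.4 and 16.1 CPM in LP. CYP17A1, the androgen-forming enzyme of theca cells, had 61.6, 60.0 and 14.7 CPM in HP and 14.6, 73.7 and 99.4 CPM in LP. HP3 was thus low in both NR5A1 and CYP17A1, whereas HP2 was low in NR5A1 and not in CYP17A1. In edgeR the log2 fold changes were -0.42 for STAR (SE 0.35), 0.12 for CYP11A1 (SE 0.89) and -0.46 for CYP17A1 (SE 0.76). With standard errors this wide, these values cannot show whether the 3 genes follow NR5A1. Of 8 tested steroid and gonadotropin genes, 6 had a negative and 2 a positive fold change, with a median of -0.31. AMH, an early hormone of the testis that granulosa cells also make, had 153.4, 467.2 and 603.6 CPM in HP and 491.5, 370.9 and 479.1 CPM in LP. HP1, the HP ovary with the most NR5A1, had the least AMH of all 6. The collagen gene COL1A1, on the stroma list and 1 of its 5 genes with p below 0.05, had 404.0, 211.2 and 247.0 CPM in HP and 440.1, 464.1 and 511.9 CPM in LP. Its order within each group was that of NR5A1 at the top, with HP1 and LP6 highest, but it was the only marker of its list of which this holds. The other 8 matched markers were lowest of LP in LP6, where NR5A1 was highest, and the sum of the list in LP6 (2175 CPM) was below that in HP1 (2427 CPM). The part of stroma content in the NR5A1 values was not tested. Of the adrenal cortex list, whose cells also use NR5A1, only MC2R matched and it had at most 0.697 CPM.

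GATA4 was the gene with the most loci and the least agreement between them. The annotated locus, on NW_004973426.1 at positions 759496 to 822806, plus strand, joins 3 reference and 11 assembled transcripts. It also carries the name LOC102093681, the number of a neighbouring DNA repair gene (NEIL2 in RefSeq), so its counts are not GATA4 alone. CPM values were 101.4, 267.5 and 99.9 in HP1, HP2 and HP3, against 265.8, 127.3 and 130.0 in LP4, LP5 and LP6. HP2 and LP4 were nearly equal and far above the other 4, which lay between 99.9 and 130.0 CPM, so the split ran across the groups. Between HP and LP the log2 fold change was -0.16 (SE 0.48, 95% interval -1.30 to 0.98), with an unadjusted p of 0.751 and an adjusted p of 0.944 in edgeR. It turned positive without HP1 (0.08), HP3 (0.08) or LP4 (0.28), and without HP2 it was -0.79 with an unadjusted p of 0.0724. No value in the table says which of its 14 transcripts were high in HP2 and LP4.

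**Figure D2:**
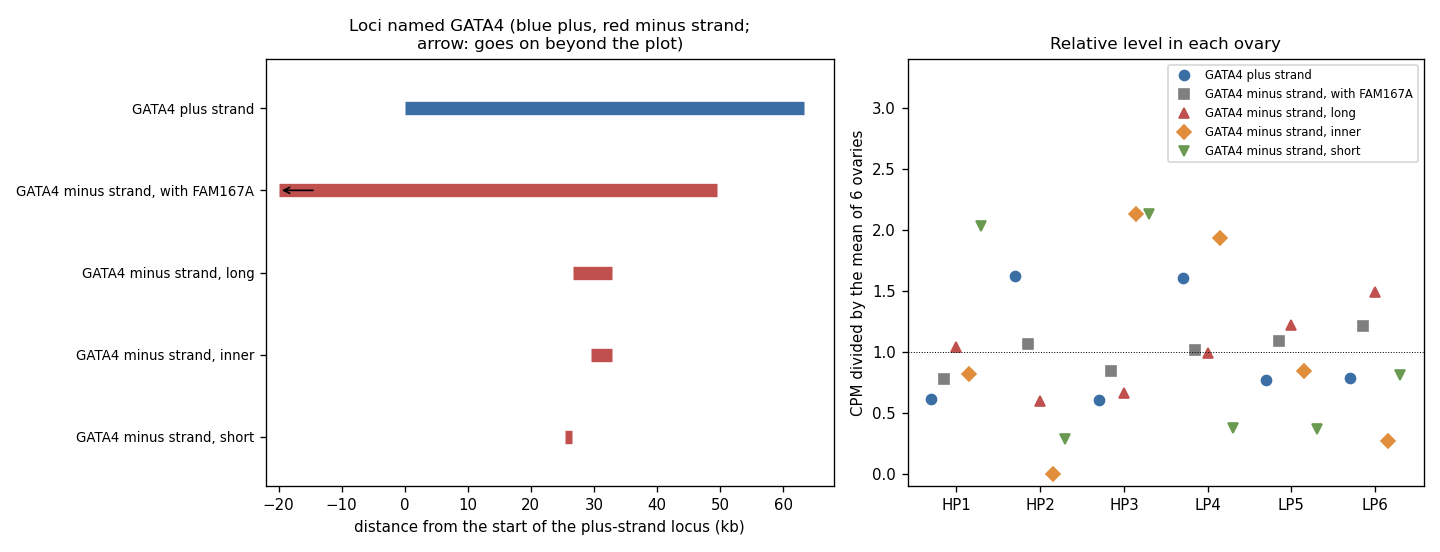
Left, extent of the 5 loci named GATA4 as distance in kb from the start of the plus-strand locus (blue plus strand, red minus strand, arrow for the locus that runs on beyond the plot). Right, CPM of each locus in each ovary divided by its mean over 6 ovaries (dotted line at the mean); HP2 is high on the plus strand and at 0 for the inner minus-strand locus, and the markers of the 5 loci scatter differently in each ovary.

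The other 4 GATA4 loci are assembled, lie on the minus strand opposite the gene and overlap it. The long one, positions 786211 to 792404, had 34.4, 19.9 and 21.9 CPM in HP1, HP2 and HP3, against 32.9, 40.5 and 49.5 CPM in LP4, LP5 and LP6. HP1 was above LP4, and HP2 and HP3 were below every LP ovary, as for NR5A1. Its log2 fold change was -0.69 (SE 0.26, 95% interval -1.30 to -0.08), with an unadjusted p of 0.0328 and an adjusted p of 0.592 in edgeR. The unadjusted p exceeded 0.05 in 6 of 13 alternatives, each fit without HP2, HP3, LP5 or LP6 among them. Its level was not high in HP2 and LP4, where the plus strand was.

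The locus that joins FAM167A and GATA4 runs from 427128 to 808953 and had 42.5, 58.2 and 46.1 CPM in HP and 55.5, 59.5 and 66.1 CPM in LP. HP2 lay among the LP values, and without it the log2 fold change went from -0.30 (SE 0.15, unadjusted p of 0.0852) to -0.45 (unadjusted p of 0.0202, adjusted p of 0.902 in edgeR). It crosses 18 other loci, 8 of them on the opposite strand, so it cannot be read as GATA4 alone. The short locus, positions 784981 to 786080, was the 1 member with a higher mean in HP. Raw counts were 183 in HP1, 24 in HP2 and 183 in HP3, and 30, 30 and 71 in LP4, LP5 and LP6. HP1 and HP3 were the highest and HP2 the lowest of the 6, and the locus passed the filter, at a mean FPKM of 0.145, through HP1 and HP3. Its log2 fold change was 1.51 (SE 0.76, 95% interval -0.30 to 3.32), with an unadjusted edgeR p of 0.0880, and without HP2 it was 2.00 with 0.00547. The adjusted p over its alternatives was between 0.488 and 0.902.

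The inner locus, positions 789108 to 792404, lies within the long one and shares its upper end. In the HP ovaries it had 597 counts (HP1), 0 (HP2) and 1478 (HP3), and in LP4, LP5 and LP6 it had 1242, 553 and 194. If each count were 1 read, the 0 in HP2 would allow up to 0.0298 CPM (3 counts, counting error only). HP1 and HP3 had 5.43 and 14.1 CPM. HP3 and LP4 were the highest, again with 1 ovary from each group. The log2 fold change of -0.05 had an SE of 1.6, and its sign depends on the setting, so no direction can be given. How reads were divided between such nested loci is not stated in the sources used here.

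**Figure D3:**
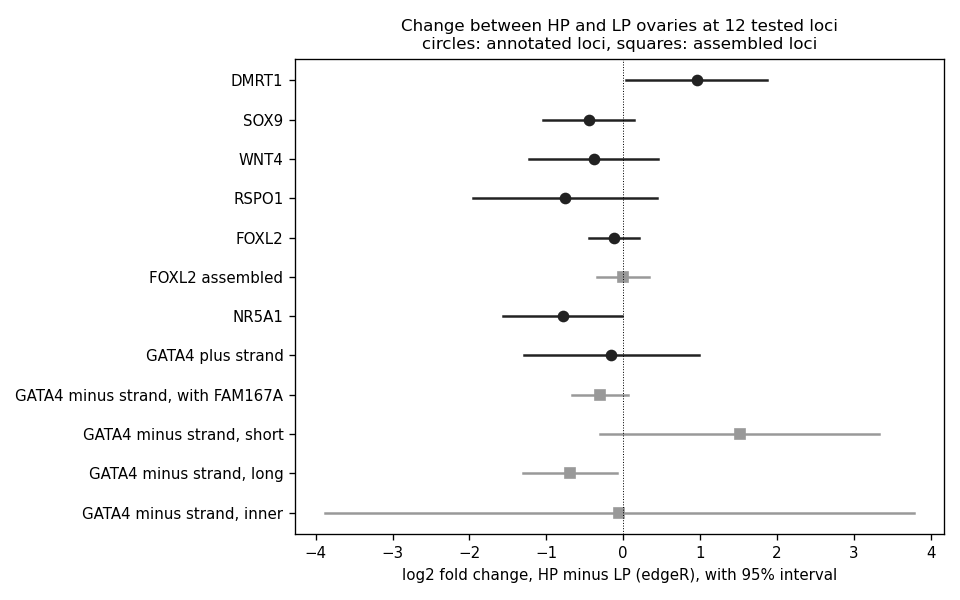
Log2 fold change, HP minus LP, from edgeR with its 95% interval (horizontal axis) for DMRT1 and the 11 tested loci found by name. Circles are annotated loci and squares assembled loci; the intervals of DMRT1, NR5A1 and the long GATA4 minus-strand locus end just short of 0, and the other 9 cross it.

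Over the 13 alternatives some loci kept the sign of their fold change and others did not. SOX9, RSPO1, FOXL2 and NR5A1 had negative fold changes in every alternative run for them, and DMRT1 a positive one. WNT4 and the plus-strand GATA4 locus changed sign when single ovaries were left out. With 5 ovaries left the groups are apart more often at any locus. Without HP2 they did not overlap at 5 of the 11 members, against 21.6% of all loci, and without LP4 at 4, against 27.8%. Without HP1 the count was 2 (28.1% of all loci), without LP5 it was 1 (23.5%), and without HP3 or LP6 it was 0 (23.8% and 25.1%). The number of members with p below 0.05 was 0 without HP3 (6.88% of all loci in that fit), without LP5 (6.77%) and without LP6 (7.50%), and 3 without HP2 (5.20%). Members that met both limits numbered 2 without HP2 (RSPO1 and the short GATA4 locus, which passed the filter through HP1 and HP3), where 2.49% of all loci met them. Without HP1 the count was 1 (NR5A1), where 3.75% of all loci did.

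For each tested member the 3 named genes with the most similar profile were taken, by Pearson's r of log2(CPM + 1) over the 6 ovaries among some 12030 candidates. NR5A1 was closest to LRP1, a lipoprotein receptor, at r = 0.99 (1417, 1088 and 1021 CPM in HP and 1408, 1670 and 1772 CPM in LP), followed by KLC1 and FICD. The long minus-strand GATA4 locus was closest to DKC1 (r = 0.99) and the collagen gene COL12A1 (r = 0.99). DMRT1 was closest to GPT (r = 0.99), SOX9 to NRBF2 (r = 0.99) and SMTN (r = 0.99), and RSPO1 to CCDC65 (r = 0.98). WNT4 was closest to CELF2 (r = 0.99), which had 60.7 CPM in LP5 and at most 2.69 CPM elsewhere, so that likeness rests on LP5. FOXL2 was closest to RBM28 (r = 0.99), and the assembled FOXL2 locus to DPH7 (r = 0.99). The plus-strand GATA4 locus was closest to CRK (r = 0.98) and CYLD (r = 0.98), both highest in HP2 and LP4. With 6 points, values this high are the top of a long list and are given as a description. The other minus-strand loci were closest to NUDT3, MRPL34 and RND2.

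Genes around the members were read from 5 fixed lists with 71 genes, of which 64 matched a locus and 60 were tested. At an unadjusted p below 0.05 in edgeR, 4 were higher in HP and 1 lower, which is 8.33% and close to the 8.24% of all loci. None of the 60 met both limits and 0 had an adjusted p below 0.05 in edgeR. In DESeq2, 2 did (LGR5 and WNT9A), where 407 of all 28274 loci did. The groups did not overlap at 7 of the 60 genes, against 14.6% of all tested loci. The median log2 fold change over the 60 genes was -0.05. At an unadjusted edgeR p below 0.05, 1 of 10 tested genes on the testis list was higher in HP. On the ovary list 1 of 16 was higher and 1 lower at this p. On the lists of the early gonad (12 tested) and of steroid and gonadotropin genes (8 tested) 0 genes passed. Relatives of the members gave 2 of 14, both higher in HP.

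**Figure D4:**
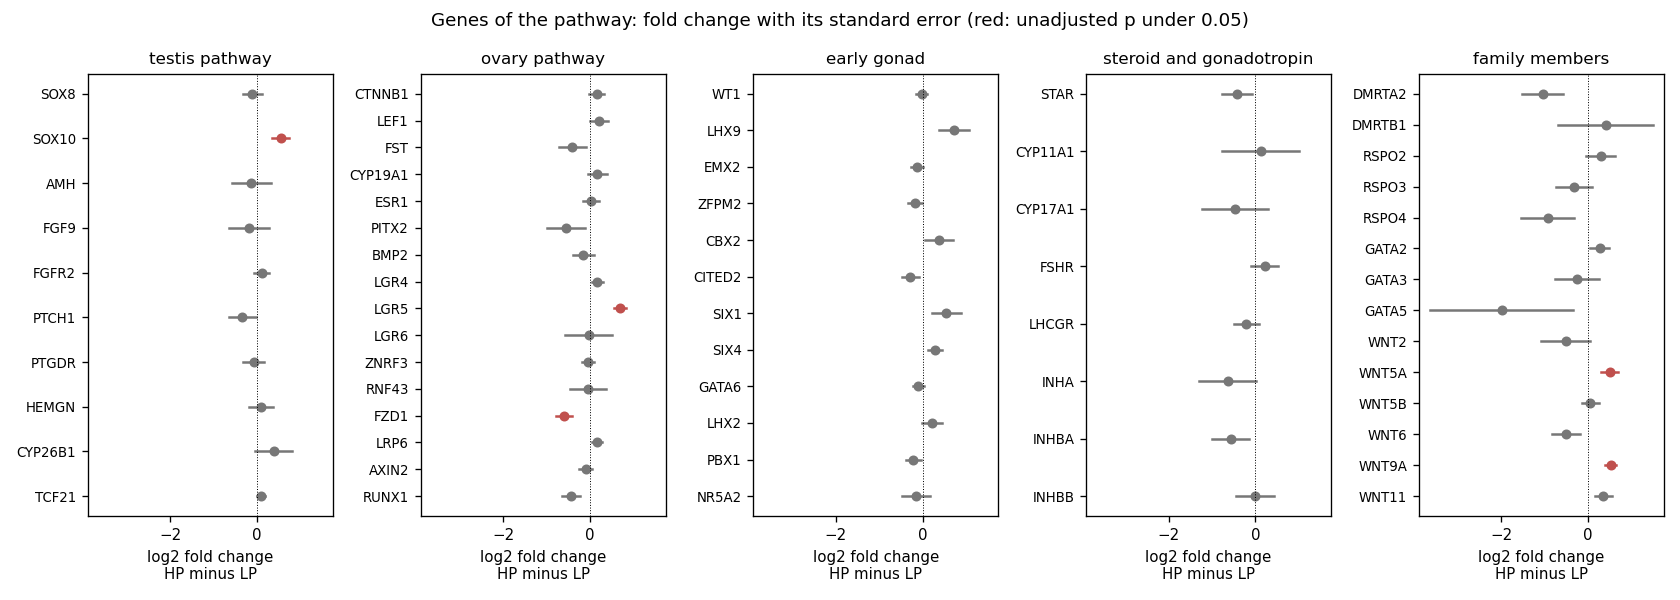
Log2 fold change, HP minus LP, with its standard error (horizontal axis) for the 60 tested genes of the 5 lists, 1 panel a list. Red marks an unadjusted edgeR p under 0.05, which 5 genes reached (SOX10, LGR5, FZD1, WNT5A and WNT9A), and the grey points lie on both sides of 0 in each panel.

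Of these list genes the one with the lowest edgeR p was LGR5, a receptor for R-spondins such as RSPO1. It had 32.3, 29.2 and 26.9 CPM in HP1, HP2 and HP3, against 19.4, 18.0 and 16.7 CPM in LP4, LP5 and LP6. Every HP ovary was above every LP ovary, and the means were 29.5 ± 2.75 and 18.0 ± 1.31 CPM (SD, n = 3 each). Its log2 fold change was 0.71 (SE 0.14), with an unadjusted p of 0.00163 and an adjusted p of 0.551 in edgeR, and p was below 0.05 in 13 of 13 alternatives. Its adjusted p was 0.000854 in DESeq2, which passed 407 loci where edgeR passed 3, and ranged up to 0.902 over the alternatives. RSPO1 itself was not higher in HP, and the related receptors LGR4 and LGR6 did not pass, with unadjusted edgeR p-values of 0.178 and 0.966.

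WNT9A, a ligand related to WNT4, had 26.7, 29.5 and 28.0 CPM in HP and 18.1, 20.9 and 19.5 CPM in LP. These groups were also apart, with a log2 fold change of 0.52 (SE 0.13), an unadjusted p of 0.00526 and an adjusted p of 0.560 in edgeR. It too kept p below 0.05 in 13 of 13 alternatives, and its adjusted p was between 0.0144 (DESeq2) and 0.902. WNT5A, another ligand, was higher in HP (log2 fold change 0.50, unadjusted edgeR p of 0.0453), and so was SOX10, a relative of SOX9 (log2 fold change 0.54, unadjusted p of 0.0271). FZD1, a WNT receptor, was lower in HP (log2 fold change -0.59, unadjusted p of 0.0186), with 99.8, 82.8 and 81.9 CPM in HP and 169.0, 125.0 and 105.2 CPM in LP. Adjusted p-values of these 3 in edgeR were between 0.584 and 0.597. The unadjusted p exceeded 0.05 in 5 of 13 alternatives for WNT5A, 4 of 12 for SOX10 and 3 of 13 for FZD1. Beta-catenin itself (CTNNB1, unadjusted p of 0.378) and its target AXIN2 (0.577) did not pass, nor did RUNX1, an ovary-side factor, at a log2 fold change of -0.43 (unadjusted p of 0.0742).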

How the data were processed

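RNA-seq of 6 pigeon ovaries (3 HP, 3 LP) was read from 1 table of 34346 loci. The authors cleaned reads with Cutadapt 1.9, checked them with FastQC 0.10.1, aligned them with Bowtie2 and HISAT2 2.0.4 against the Cliv_1.0 genome, and assembled, merged and quantified transcripts with StringTie 1.3.4 and Ballgown (versions from the submitters' processing notes, which also name edgeR without a version). The deposited counts are whole numbers per locus, not normalized, and how they were made, or whether strand was used, is not given in the sources used here. In HP1, HP2 and HP3 their totals were above the numbers of raw reads that the paper gives for these libraries. The paper numbers the LP libraries otherwise than the labels, but the total of LP6 was above every number it gives for LP. The deposited counts are therefore not numbers of distinct mapped reads. The deposited FPKM values were scaled by the authors to length and to the number of mapped fragments. A locus sums all its transcripts, and the table gives spans, not exons. The labels and the methods name different sequencers.

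Counts were tested with edgeR 4.0.16 (R 4.3.3, TMM, quasi-likelihood F-test, two-sided, no covariates) on the 28274 loci whose FPKM averaged 0.1 or more over the ovaries (6072 loci fell below) with Benjamini-Hochberg adjustment over all of them. Alternatives were RLE scaling, no filter, a mean FPKM of at least 1, DESeq2 1.42.0, limma 3.58.1 on log2(FPKM + 1) and log2(FPKM + 0.1), the Ballgown linear model, and leaving out each ovary, and the fits were tested on simulated data. The limits of p below 0.05 and an absolute log2 FPKM ratio of at least 1 use the cut-offs named in the study's methods. There they belong to Ballgown p-values under an FDR-based limit, whereas here they were applied to unadjusted edgeR p-values. Precision is set by 3 birds a group, with a biological coefficient of variation of 0.423.

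Named were all members, list genes with p below 0.05 (at most 10 per list, markers summarised), the 3 most similar named loci per member (mean FPKM of at least 1), and loci overlapping a member. Other genes named with values were chosen after these were seen. The members and lists were chosen with earlier results of these data known. List genes under LOC names were matched by RefSeq gene number (bColLiv1, names only) or protein description, and 29 genes of all lists were not matched. The further marker lists (theca, epithelium, endothelium, leukocyte, adrenal medulla, oviduct) gave an unadjusted edgeR p below 0.05 for 2 genes, both lower in HP. They were TIE1, of 6 tested endothelium markers, and MSLN, of 4 tested epithelium markers. Over all tested loci 8.24% had such a p. Fold changes were negative for 6 of 6 endothelium, 2 of 4 epithelium, 3 of 4 theca and 4 of 6 leukocyte markers. They were negative for 0 of 7 adrenal medulla markers and for the 1 oviduct marker tested.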

Additional observations from a re-analysis of the deposited data

How the results depend on the processing

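The count of members with p below 0.05 was 2 in the edgeR fit. With limma on log2(FPKM + 1) it was 1 (NR5A1), where 2420 of 28274 loci had such a p. With the Ballgown model it was also 1, where 1580 loci did. That 1 was the short GATA4 locus, higher in HP, which passed the FPKM filter only through HP1 and HP3. Neither of the 2 members of the edgeR fit passed there. Without single ovaries the count was between 0 and 3, where between 5.20% and 9.12% of all loci passed. The count meeting both limits (0, without DMRT1, which met them in edgeR) was 1 with the Ballgown model, again the short GATA4 locus. It was between 0 and 2 without single ovaries, where between 2.49% and 3.75% of all loci met them. Members with an adjusted p below 0.05 numbered 0 in all 13 alternatives. List genes with p below 0.05 (5) numbered between 3 and 7 without single ovaries and between 4 and 6 otherwise. Members whose groups did not overlap (0) numbered between 0 and 5 without single ovaries, where between 21.6% and 28.1% of all loci did not overlap, and 0 on FPKM. Signs turned for WNT4 without LP5 (0.11, down to -0.65 without LP4), for the plus-strand GATA4 locus without HP1 (0.08), HP3 (0.08) or LP4 (0.28, down to -0.79 without HP2), and for the inner GATA4 locus in the Ballgown model (0.72) and without HP1 (0.07), HP2 (0.54) or LP4 (0.82, down to -1.31 without HP3). The assembled FOXL2 locus, near 0 in edgeR, was at 0.0056 with RLE scaling and 0.0056 with DESeq2, 0.0396 and 0.0397 with limma at pseudocounts of 1 and 0.1, 0.14 in the Ballgown model, 0.10 without HP1 and 0.10 without LP6, and at -0.0973 without HP3. Over all loci an adjusted p below 0.05 was reached by 3 in edgeR, 407 in DESeq2, 6 and 7 in limma, 1 in the Ballgown model, and between 0 and 7 without single ovaries. An unadjusted p below 0.05 was reached by 2330 in edgeR, by 2879 in DESeq2, and by between 1467 and 2574 without single ovaries. The causes were not tested. No paired analysis was made, because each ovary came from a separate bird and no pairing of HP with LP birds is given.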
